A study of Mus musculus with 11 samples.

Results

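The 10 genes described here encode CC chemokines that act on monocytes, macrophages, eosinophils and T cells: Ccl2, Ccl7, Ccl8 and Ccl12, Ccl3, Ccl4, Ccl6 and Ccl9, and Ccl17 and Ccl24. A gene was included when a probe carrying its symbol on a whole-genome mouse bead array had a detection p-value under 0.05 on at least 1 array. All 10 genes met this rule, with 13 probes between them, out of 10933 genes tested. Ccl17 met it only through the PLX4720 arrays and Ccl24 only through 1 of them, so their inclusion depended on a group compared below. Ccl7, Ccl12 and Ccl4 had 2 detected probes each and the other 7 genes had 1.

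RNA came from tumors of A375, a human melanoma cell line with an activating BRAF mutation, grown under the skin of 6-week-old female CD1 athymic mice. Athymic mice lack a thymus and so most T cells, but keep macrophages, granulocytes and natural killer cells. Because the tumor cells are human and every other cell is from the mouse, the mouse array was used to read the host compartment, and the binding of human transcripts to its probes was not analysed here. Tumors had reached 150 to 200 mm3 when treatment began and were treated for 12 days.

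Vehicle mice (n = 3) received methylcellulose. PLX4720 mice (n = 3) received this BRAF inhibitor by daily gavage at 60 mg/kg. Bevacizumab mice (n = 3), given 10 mg/kg by intraperitoneal injection 3 times per week, were treated with an antibody that binds human VEGF-A, which in this model comes from the tumor cells. COMBO mice (n = 2) received both drugs. The study's methods call these biological replicates, and with 2 COMBO arrays every comparison with that group is less precise than the others.

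On the PLX4720 arrays 13049 to 15130 probes were detected, against 10115 to 12315 on the other 8 arrays. Skeletal muscle genes (mean log2 signal of 16) exceeded the vehicle mean by 7.24 in PLX4720 replicate 1, by 4.45 in COMBO replicate 1 and by 3.82 in bevacizumab replicate 2, and Acta1, skeletal muscle actin, was detected on 6 of the 11 arrays. These arrays stand apart from the rest. Some results for Ccl8, Ccl17 and Emcn and some counts of calls are also given without them, and the other results are not.

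CC chemokines are small secreted proteins that form gradients and draw leukocytes out of the blood through G protein-coupled receptors. Ligands of CCR2 recruit blood monocytes, which become macrophages in tumors. Ligands of CCR1 act on monocytes, macrophages, T cells and natural killer cells, the CCR4 ligand Ccl17 on T helper and regulatory T cells, and the CCR3 ligand Ccl24 on eosinophils. Ccl6, Ccl9 and Ccl12 are known from rodents and have no exact human counterpart.

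The genes sit in families on the mouse genome. On chromosome 11 (GRCm38.p6) lie 8 of the 10. One cluster runs from Ccl2 (chr11:82035577-82037452) through Ccl7 (chr11:82045712-82047525) and Ccl12 (chr11:82101845-82103399) to Ccl8 (chr11:82115185-82116799). After a gap of 1456117 bases follow Ccl9 (chr11:83572917-83578636), Ccl6 (chr11:83587886-83593087), Ccl3 (chr11:83647843-83649378) and Ccl4 (chr11:83648624-83664683). The annotated models of Ccl3 and Ccl4 overlap by 755 bases, and which bases each probe reads was not analysed here. Ccl17 lies on chromosome 8 (chr8:94809380-94812038) and Ccl24 on chromosome 5 (chr5:135569935-135573123).

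RefSeq promoter entries (GRCm38.p6) matched 6 of the 10 genes. The 250 bases before each start were searched on both strands for 4 motifs. The letters TATAAA stand for the box at which transcription is often positioned. The second motif was TGANTCA, a loosened form of the site read by the AP-1 factors, with any base allowed in the middle. The others were TTCNNNNGAA, the spacing preferred by STAT6, which carries interleukin-4 and interleukin-13 signals, and TTCNNNGAA, the spacing of other STAT factors. Shown here are the 160 bases before the start of Ccl8 and Ccl12, neighbors of which only the first passed the test below, of Ccl6 and Ccl9, neighbors whose signals moved together from array to array, and of Ccl17, the gene detected on the PLX4720 arrays alone. They read 5′ to 3′ on the strand of the gene, and capitals mark these motifs. The windows are chr11:82115025-82115184 (plus strand) for Ccl8, chr11:82101685-82101844 (plus) for Ccl12, chr11:83593088-83593247 (minus) for Ccl6, chr11:83578637-83578796 (minus) for Ccl9 and chr8:94810293-94810452 (plus) for Ccl17. The start in the Ccl17 entry lies 1073 bases inside the gene model given above, whereas the other 4 windows end at the edge of theirs.
Ccl8: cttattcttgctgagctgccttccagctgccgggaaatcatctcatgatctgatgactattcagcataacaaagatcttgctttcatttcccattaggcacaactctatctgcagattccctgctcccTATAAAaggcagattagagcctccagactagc
Ccl12: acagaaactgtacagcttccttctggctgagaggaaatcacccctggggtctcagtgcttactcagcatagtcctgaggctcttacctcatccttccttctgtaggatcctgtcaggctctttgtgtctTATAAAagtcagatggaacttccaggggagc
Ccl6: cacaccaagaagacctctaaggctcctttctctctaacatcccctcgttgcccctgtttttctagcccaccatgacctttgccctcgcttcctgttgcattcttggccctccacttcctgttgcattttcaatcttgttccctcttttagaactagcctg
Ccl9: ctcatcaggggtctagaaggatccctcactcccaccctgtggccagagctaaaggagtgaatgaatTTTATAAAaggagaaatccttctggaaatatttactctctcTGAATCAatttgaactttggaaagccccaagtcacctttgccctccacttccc
Ccl17: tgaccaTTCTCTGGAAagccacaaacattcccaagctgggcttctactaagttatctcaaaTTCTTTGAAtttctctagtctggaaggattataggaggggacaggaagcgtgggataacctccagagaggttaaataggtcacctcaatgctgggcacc

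Ccl8 and Ccl12 share TATAAA at nearly the same place, 32 to 27 bases before the start in Ccl8 and 31 to 26 bases before it in Ccl12. These letters occurred in 3 of the 6 entries and in 12.3% of the 32536 distinct promoters of the same length. In Ccl9 they were read on both strands in an overlapping run 94 to 87 bases before the start and again on the opposite strand 224 to 219 bases before it, outside the stretch shown. The loosened AP-1 letters, which 6.73% of promoters hold, lay 53 to 47 bases before the start of Ccl9, with A as the middle base. Ccl6 held none of these letters. Ccl17 held TTCNNNNGAA at 154 to 145 bases and TTCNNNGAA at 99 to 91 bases before its start, and these occurred in 5.89% and 7.04% of promoters. A match of letters is a description and not a measured binding site.

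Signals are given on the log2 scale after background correction and quantile normalization, and group differences come from a linear model (limma) over all 11 arrays, with Benjamini-Hochberg adjustment of p-values across the 10933 genes. The question was whether blocking BRAF, VEGF or both changed the chemokines made by host cells. With PLX4720, 2 of the 10 chemokines rose at an adjusted p under 0.05, Ccl8 and Ccl17, and none fell. Over all genes 5.44% rose and 7.44% fell in this comparison. Because Ccl17 was tested only through the PLX4720 arrays, counts that include it, here and below, were not independent of its selection. The median difference of the 10 was 0.35, against 0.14 for all genes.

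With bevacizumab none of the 10 passed (0.00915% of all genes did), and 1 had an unadjusted p under 0.05. With COMBO none rose or fell, where 0.119% of all genes rose and 0.32% fell, and 1 had an unadjusted p under 0.05. None differed between COMBO and PLX4720 (0.101% of all genes did) or between COMBO and bevacizumab (0.0366%), with 1 and 3 at an unadjusted p under 0.05. In the test of whether the 2 drugs together departed from the sum of their single effects, none of the 10 and 0.11% of all genes passed, with 2 of the 10 at an unadjusted p under 0.05. The F test over the 4 groups called Ccl8 and Ccl17, 2 of 10, against 4.39% of all genes, though Ccl17 was tested only through the PLX4720 arrays.

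By the rule of the study's methods, a difference of at least 1 on the log2 scale with an unadjusted p under 0.01, Ccl8 and Ccl17 were higher with PLX4720 than with vehicle, as were 4% of all genes. Ccl8 was also higher with COMBO than with vehicle (1.88% of all genes) and than with bevacizumab (0.924%). Ccl17 was lower with COMBO than with PLX4720 (1.56% of all genes) and below the sum of the single effects (1.63%). Counting arrays rather than fitting, all treated arrays lay above all vehicle arrays for 3 of the 10 genes with PLX4720 (groups of 35.1% of all genes did not overlap, in either direction), and for 2 with bevacizumab (13.7% of all genes). With COMBO 2 genes lay wholly above vehicle and 1 wholly below (40% of all genes did not overlap). COMBO lay wholly below PLX4720 for 3 genes (31.7%), of which Ccl24 was at background on all but 1 of these arrays, and apart from bevacizumab for 3, of which 2 were higher (28.6%).

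**Figure D1:**
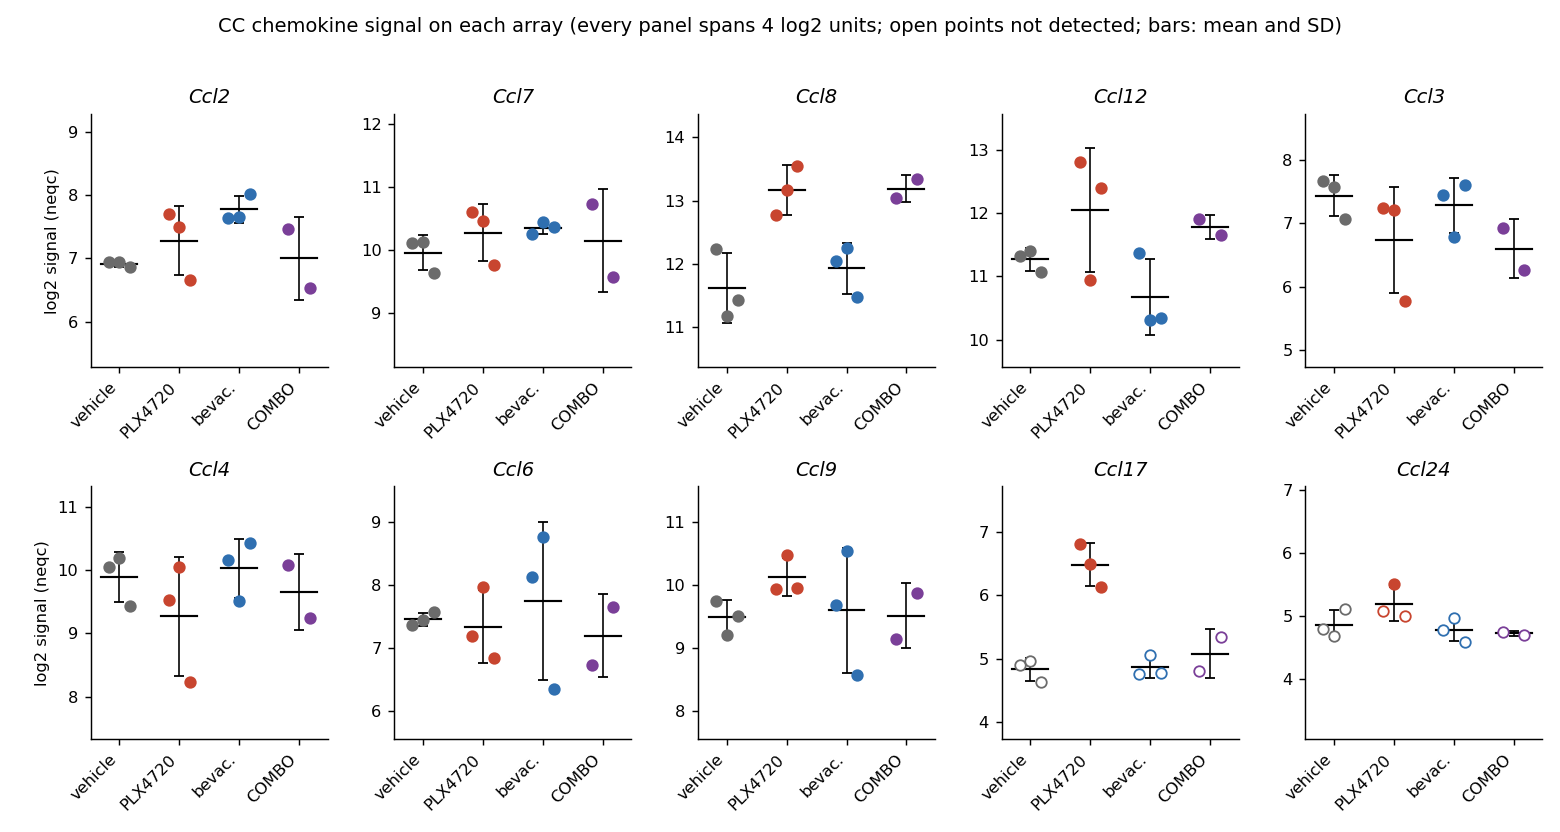
Signal of each chemokine on each of the 11 arrays (y axis, log2 signal after normalization; x axis, treatment group), with the group mean and its SD as bars and open points where the probe was not detected. Ccl8 lies at 12.77 or more on every PLX4720 and COMBO array and at 12.25 or less on every other array, and Ccl17 is detected on the 3 PLX4720 arrays only.

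Ccl8, monocyte chemoattractant protein of the CCR2 ligand cluster, which in the mouse also acts on CCR8, rose with PLX4720. Its log2 signal was 12.23, 11.18 and 11.42 on the vehicle arrays and 12.77, 13.17 and 13.55 on the PLX4720 arrays. It was 12.04, 12.25 and 11.48 with bevacizumab and 13.04 and 13.33 with COMBO. The PLX4720 and COMBO arrays thus overlapped each other and lay above all vehicle and all bevacizumab arrays, which also overlapped.

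In the deposited intensities the same split ran from 2082 to 4915 on vehicle arrays and 2126 to 4028 on bevacizumab arrays to 7059 to 9147 on COMBO arrays and 11297 to 15703 on PLX4720 arrays. These intensities are not normalized, and PLX4720 arrays were brighter in all. Their mean over all probes was 379.2 to 477.7, against 262.1 to 342.3 on the other 8 arrays. PLX4720 raised Ccl8 by 1.56 ± 0.32 (SE) on the log2 scale, or 2.94-fold (adjusted p = 0.0121). In a tumor extract, more cells of a type and more RNA per cell cannot be told apart. With COMBO the difference from vehicle was 1.57 ± 0.36, or 2.98-fold, and did not pass the adjustment (adjusted p = 0.0891), while both COMBO arrays lay above all 3 vehicle arrays. COMBO differed from PLX4720 by 0.02, with a 95% interval from -0.77 to 0.81, and bevacizumab from vehicle by 0.32, with an interval from -0.39 to 1.02.

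The call with PLX4720 was lost without vehicle replicate 2 (1.34, adjusted p = 0.0644) and without vehicle replicate 3 (1.45, adjusted p = 0.0505). It stood without the 3 arrays highest in muscle genes (1.77, adjusted p = 0.0275). The mean of 16 monocyte and macrophage markers was higher in the same groups, although not every marker was, as given below. This mean was 9.67 to 10.37 on vehicle arrays, 10.02 to 10.11 with bevacizumab, 10.59 to 10.70 with PLX4720 and 10.70 to 10.93 with COMBO. Its part in the Ccl8 result was not tested.

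Ccl12, a second CCR2 ligand of the mouse and the gene next to Ccl8, was less even. Its signal was 11.32, 11.41 and 11.07 with vehicle, 12.81, 10.94 and 12.40 with PLX4720, 11.37, 10.32 and 10.35 with bevacizumab, and 11.91 and 11.65 with COMBO. The PLX4720 arrays reached from below the vehicle range to well above it, and both COMBO arrays lay above vehicle. No difference passed: PLX4720 minus vehicle was 0.78 (adjusted p = 0.229; 1.36 and called without PLX4720 replicate 2, adjusted p = 0.0255, and 1.58 and called under median scaling, adjusted p = 0.0137) and COMBO minus bevacizumab 1.10 (adjusted p = 0.497). The other detected Ccl12 probe gave 0.58 and 0.99, in the same directions.

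Ccl2, the best known CCR2 ligand and a main attractant of inflammatory monocytes, was tightly grouped in vehicle tumors at 6.95, 6.93 and 6.86. Bevacizumab arrays read 7.65, 7.66 and 8.02, all above vehicle. PLX4720 arrays read 7.70, 7.50 and 6.66 and COMBO arrays 7.46 and 6.54, so both groups straddled the vehicle values. The bevacizumab difference of 0.86 (1.82-fold, 95% interval 0.18 to 1.54) had an adjusted p of 0.641. COMBO was 0.78 below bevacizumab without overlap (adjusted p = 0.504), and the departure from the sum of the single effects was -1.14 (adjusted p = 0.299). Both moved by over 1.5 times with the COMBO array kept: COMBO minus bevacizumab was -1.24 without COMBO replicate 1 and -0.31 without COMBO replicate 2, and the departure was -0.68 without COMBO replicate 2.

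Ccl7, another CCR2 ligand that also acts on CCR1 and CCR3, had the same order of group means as Ccl2, bevacizumab highest and vehicle lowest, over a smaller range. It was 10.11, 10.13 and 9.65 with vehicle and 10.26, 10.45 and 10.37 with bevacizumab, again without overlap. PLX4720 arrays were at 10.61, 10.46 and 9.76 and COMBO arrays at 10.73 and 9.57. Bevacizumab minus vehicle was 0.40 (adjusted p = 0.886), and the other probe of Ccl7 gave 0.59 for this difference and 0.71 for PLX4720 minus vehicle, where the probe used gave 0.32.

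Ccl3, Ccl4, Ccl6 and Ccl9 passed none of the tests. Ccl3, macrophage inflammatory protein alpha, is secreted by activated macrophages and was 7.68, 7.57 and 7.07 with vehicle and 7.25, 7.21 and 5.78 with PLX4720. With bevacizumab it was 7.45, 6.79 and 7.61 and with COMBO 6.93 and 6.27. Both COMBO arrays lay below all vehicle arrays, by 0.84 in the mean (95% interval -1.80 to 0.12, adjusted p = 0.423), and the PLX4720 mean differed from vehicle by -0.69 (adjusted p = 0.245), a value that turned to 0.30 under median scaling, a setting in which all genes together had a median difference of 0.76. Without PLX4720 replicate 3 this difference was -0.21, and the COMBO difference was -0.51 without COMBO replicate 2. Ccl3 was the only one of the 10 to lie wholly below vehicle in any treated group.

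Ccl4, macrophage inflammatory protein beta, is usually made by the same cells as Ccl3. Vehicle arrays read 10.05, 10.19 and 9.44, PLX4720 arrays 9.53, 10.05 and 8.23, bevacizumab arrays 10.15, 9.51 and 10.42, and COMBO arrays 10.08 and 9.24. All groups overlapped, and the differences from vehicle were -0.62 with PLX4720, 0.14 with bevacizumab and -0.23 with COMBO (adjusted p from 0.347 to 0.973). The other probe gave -0.60 for COMBO and -0.69 for PLX4720, and median scaling turned the PLX4720 difference of the probe used to 0.40. Without PLX4720 replicate 3 it was -0.10.

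Ccl6 and Ccl9 are rodent chemokines that signal through CCR1. Ccl6 was 7.36, 7.44 and 7.57 with vehicle, 7.20, 7.97 and 6.85 with PLX4720, 8.13, 8.76 and 6.36 with bevacizumab, and 6.73 and 7.66 with COMBO. Its lowest and highest values of all 11 arrays were both in bevacizumab tumors, with an SD of 1.25 there against 0.11 in vehicle tumors. The interval of the bevacizumab difference ran from -0.84 to 1.42 on the log2 scale, so a rise of more than 2-fold was not excluded at this spread.

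Ccl9 was 9.75, 9.22 and 9.51 with vehicle, 9.94, 10.47 and 9.96 with PLX4720, 9.68, 10.54 and 8.58 with bevacizumab, and 9.15 and 9.88 with COMBO. The PLX4720 arrays lay above both the vehicle and the COMBO arrays, and the extremes again fell in bevacizumab replicates 2 and 3. PLX4720 minus vehicle was 0.63 (1.55-fold, adjusted p = 0.314) and COMBO minus PLX4720 -0.61 (adjusted p = 0.589).

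Ccl17, the CCR4 ligand made by dendritic cells and by macrophages under interleukin-4 or interleukin-13, was detected on the 3 PLX4720 arrays and on none of the other 8. Its signal on the PLX4720 arrays was 6.82, 6.50 and 6.14. The vehicle arrays read 4.90, 4.97 and 4.63, the bevacizumab arrays 4.76, 5.06 and 4.78 and the COMBO arrays 4.81 and 5.35, all not well above background. The PLX4720 arrays thus overlapped none of the other 8.

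Taking each undetected array at the lowest signal of its detected probes, or at its own value where higher, Ccl17 was at least 1.51-fold higher with PLX4720 than with vehicle, and the model passed it (adjusted p = 0.00294, difference of the measured means 1.65 ± 0.25). It was at least 1.69-fold higher with PLX4720 than with COMBO, a difference of means of -1.40 ± 0.28 for COMBO minus PLX4720 that did not pass in the main model (adjusted p = 0.0861) and passed with trended and robust variance moderation (adjusted p = 0.0432) and under median scaling (adjusted p = 0.015). It was -0.93 (adjusted p = 0.743) without the 3 arrays highest in muscle genes and -0.70 (adjusted p = 0.137) with no background correction, and over all alternatives the adjusted p ran from 0.015 to 0.743. The departure from the sum of the single effects was -1.44 (adjusted p = 0.163), and -0.86 (adjusted p = 0.662) without the 3 arrays. No fold is given among vehicle, bevacizumab and COMBO, since none of these arrays detected the gene.

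Ccl17 entered the tests only through the PLX4720 arrays, so its inclusion was not independent of the PLX4720 call. The call stood with no detection filter and in each of the 11 fits that left out 1 array (1.41 to 1.80). It also stood without the 3 arrays highest in muscle genes (1.44, adjusted p = 0.0225). The mean of 7 tested dendritic cell markers, of 10 listed, was 7.04 to 7.88 on the PLX4720 arrays, 6.49 to 7.16 on vehicle arrays, 7.03 to 7.36 on bevacizumab arrays and 7.48 to 8.35 on COMBO arrays. Itgax, Flt3 and Xcr1 of this list were detected on no array, and Cd209a and Clec9a on 1 each. Only H2-Ab1 and Cd74 were detected on all 11, and H2-Aa had an SD of 4.0 with COMBO. The mean is thus a weak measure of dendritic cells. PLX4720 arrays also had more probes detected in all, and the part of this or of the marker mean in the Ccl17 result was not tested.

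Ccl24, eotaxin 2 in older naming and a ligand of the eosinophil receptor CCR3, was detected on PLX4720 replicate 2 alone, at 5.50. The other 10 arrays read 4.60 to 5.12 and did not detect it, so the order of these arrays is one of background signal. No fold is given, since the signal of the group with 1 detected array was under the bound of the undetected ones.

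**Figure D2:**
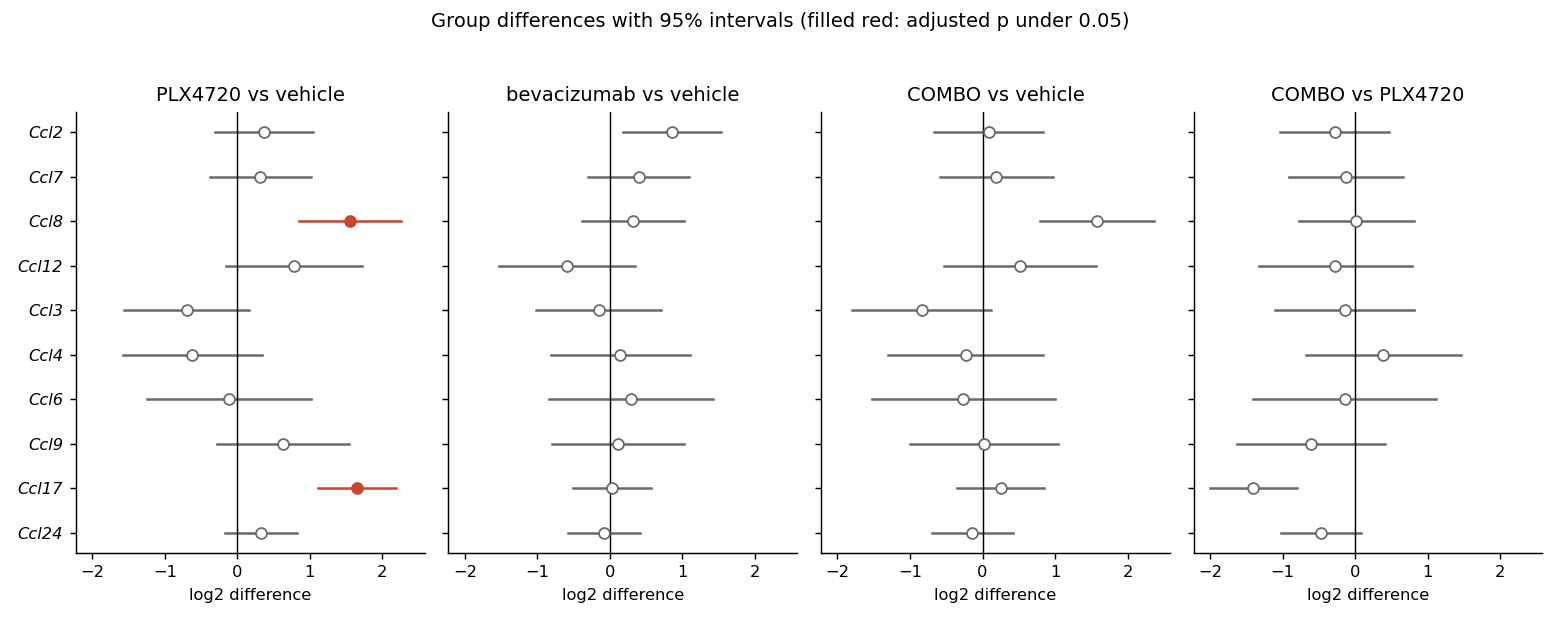
Difference between group means (x axis, log2 scale) with its 95% interval for each of the 10 chemokines in 4 comparisons, filled red where the adjusted p was under 0.05. Ccl8 and Ccl17 pass for PLX4720 against vehicle, and the Ccl8 interval for COMBO against vehicle (0.79 to 2.36) also excludes 0 without passing the adjustment. Intervals of Ccl17 and Ccl24 that involve undetected groups rest on background signal.

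Within the groups, the signals of some pairs of the chemokines varied together from tumor to tumor. After each array was set against its group mean, 7 of the 45 pairs of members had a Pearson r over 0.7 across the 11 arrays and none was under -0.7. The share of such pairs among all genes was not analysed here, so the count does not set the members apart from other genes. Ccl3 and Ccl4 had r = 0.96 (rho = 0.86), Ccl6 and Ccl9 r = 0.93 (rho = 0.85) and Ccl2 and Ccl7 r = 0.90 (rho = 0.85). The genes of each pair lie side by side among the members on chromosome 11. The other 4 pairs joined Ccl2 and Ccl7 to Ccl3 and Ccl4 (r from 0.75 to 0.86), which lie over a megabase away.

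PLX4720 replicate 3 and COMBO replicate 2 read low in Ccl2, Ccl7, Ccl3 and Ccl4 at once, and bevacizumab replicate 3 read low and bevacizumab replicate 2 high in Ccl6 and Ccl9. Without the 2 arrays farthest from the median of the first gene, r stayed over 0.7 for 4 of the 7 pairs. It was 0.92 for Ccl3 and Ccl4, 0.78 for Ccl6 and Ccl9, 0.76 for Ccl2 and Ccl7 and 0.72 for Ccl2 and Ccl3. The group means were not recomputed for this, so kept arrays retained deviations set in part by the arrays left out. With COMBO replicate 2 left out of the Ccl2 pairs, COMBO replicate 1 kept its deviation of 0.46 in Ccl2. These values therefore do not show whether the pairs hold without the arrays left out. Ccl2 and Ccl9 did not move together (r = -0.36), and Ccl8 and Ccl12, also neighbors, had r = -0.05. These correlations describe 11 points that share an array and its normalization, and carry no test. With the 4 group means subtracted, only 7 of the 11 deviations are free. The 2 COMBO arrays mirror each other by construction (0.46 and -0.46 in Ccl2, 0.58 and -0.58 in Ccl7), so they count as 2 points but hold 1 contrast.

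**Figure D3:**
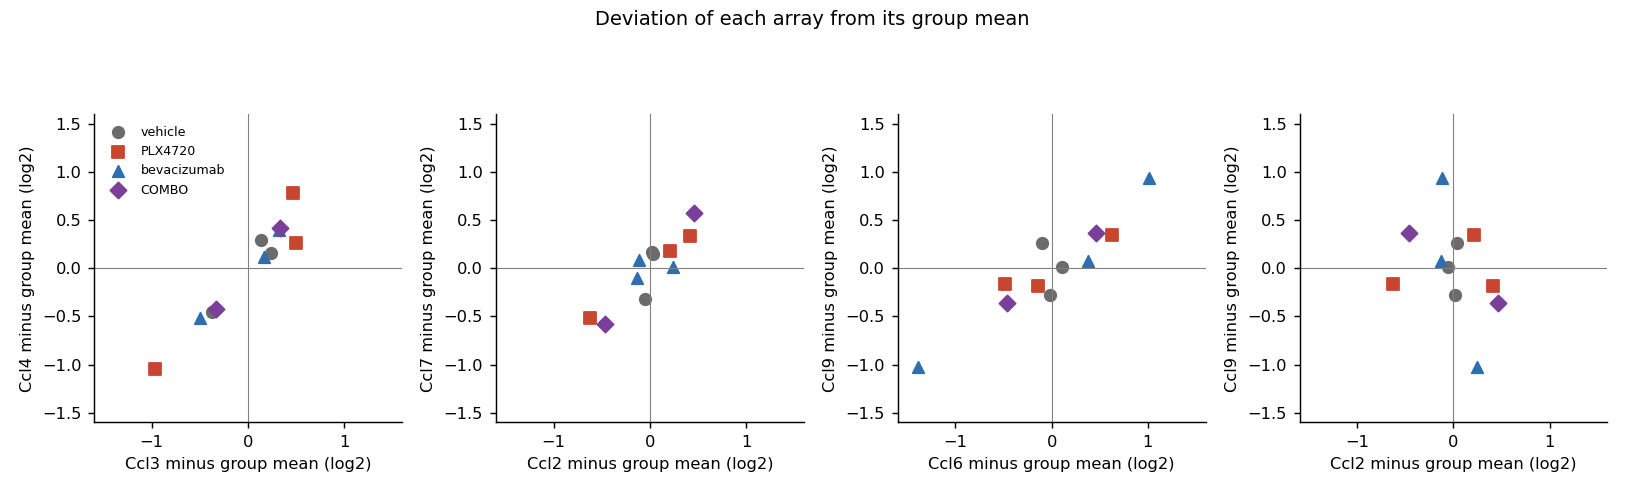
Deviation of each array from the mean of its group (both axes, log2 units) for 4 pairs of chemokines, with color and symbol for the group. Points for Ccl3 with Ccl4, Ccl2 with Ccl7 and Ccl6 with Ccl9 run along the diagonal (r = 0.96, 0.90 and 0.93), while Ccl2 with Ccl9 does not (r = -0.36). The COMBO points mirror each other around the origin by construction.

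The receptors of these ligands were mostly not detected. Probes for Ccr1, Ccr3, Ccr4 and Ccr8 were detected on no array. Ccr2, the monocyte receptor for Ccl2, was detected on PLX4720 replicate 2 alone, where it read 5.49, and ranged from 4.89 to 5.54 over all arrays. Of 16 other chemokine receptors listed, 11 were tested, and the F test passed for Ackr2, a scavenger that removes inflammatory CC chemokines, although none of the 5 comparisons between groups did: it was 7.97 with vehicle, 6.90 with PLX4720, 8.07 with bevacizumab and 6.16 with COMBO (F adjusted p = 0.0404, COMBO minus vehicle -1.81, adjusted p = 0.0903).

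Of 12 other CC, CX3C and XC chemokines tested, 2 rose with PLX4720 and none fell, with a median difference of 0.50. Among all genes 5.44% rose and 7.44% fell with PLX4720, with a median difference of 0.14. Ccl5, a CCR1 and CCR3 ligand outside the 10, was 8.75, 8.30 and 7.15 with vehicle, 10.20, 9.91 and 9.84 with PLX4720, 9.92, 9.01 and 9.28 with bevacizumab and 10.92 and 9.54 with COMBO, so every treated array lay above every vehicle array. It rose by 1.92 ± 0.44 with PLX4720 (adjusted p = 0.0183), a call lost without vehicle replicate 2 (adjusted p = 0.0571) or vehicle replicate 3 (adjusted p = 0.0627), and was 2.16 higher with COMBO (adjusted p = 0.086). The other was Cx3cl1, the membrane-bound ligand of the monocyte receptor CX3CR1 (2.28 ± 0.55, adjusted p = 0.0225), and in the CXC list, where 10 genes were tested, 1 rose with PLX4720, Cxcl12, a stromal attractant of CXCR4-bearing cells (1.69 ± 0.36, adjusted p = 0.0128).

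Among 11 tested cytokines that can induce CC chemokines, 2 fell with PLX4720 and none rose, where 7.44% of all genes fell and 5.44% rose. The 2 cytokines were Il13, which induces Ccl17 and Ccl24 in macrophages (fell by 1.16, adjusted p = 0.0401), and Vegfa, which also attracts monocytes (fell by 1.75, adjusted p = 0.0349). Cx3cl1, Cxcl12, Il13, Vegfa and, among the macrophage markers below, C1qa, C1qb, Lyz1, Lyz2, Tyrobp, Cx3cr1, Itgam and Fcgr1 were named after their values were seen.

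Markers of the cells that these chemokines attract were read from marker lists. Of the monocyte and macrophage list, 16 of 19 genes were tested, Csf1r and Adgre1 were detected on all 11 arrays, and Cd68 was not analysed here. With PLX4720, 4 of the 16 rose, Mrc1, C1qb, Lyz1 and Tyrobp, and none fell, where 5.44% of all genes rose and 7.44% fell. Means of C1qa (-1.01), Cx3cr1 (-0.26), Lyz2 (-0.25) and Itgam (-0.09) lay below vehicle without passing, and those of the other tested markers lay above. Itgam was detected on 1 array. With bevacizumab none passed (0.00915% of all genes did). With COMBO none passed either, where 0.119% of all genes rose and 0.32% fell. Fcgr1, detected on 6 of the 11 arrays, differed from vehicle by -1.66 with COMBO, while the other tested markers had higher means. The median difference of the 16 from vehicle was 0.74 with PLX4720, 0.08 with bevacizumab and 0.95 with COMBO. The Mrc1 call with PLX4720 was lost under 8 of 23 alternatives. The F test called Mrc1, the mannose receptor (10.03 with vehicle, 11.30 with PLX4720, 9.57 with bevacizumab and 10.71 with COMBO, adjusted p = 0.0371), and Cd14, a lipopolysaccharide co-receptor (10.18, 10.87, 10.00 and 11.68 in the same order, adjusted p = 0.0266).

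Eosinophil markers were not detected in any group: of 11 listed genes 8 had a probe and none was detected on any array, Epx, Prg2 and Siglecf included. The mean of 4 tested T cell markers was 7.70 on COMBO replicate 1 and 6.83 on PLX4720 replicate 3, against 5.31 to 5.88 on the other 9 arrays, and its part in the chemokine values was not tested. In the fibroblast list of 8 tested genes the F test called Thy1 (10.27 with vehicle, 11.06 with PLX4720, 10.82 with bevacizumab and 9.04 with COMBO, adjusted p = 0.0185) and Col1a1, a collagen chain (11.18, 11.37, 10.79 and 8.95 in the same order, adjusted p = 0.0453). In the endothelial list 5 of 8 genes fell with PLX4720, where 7.44% of all genes fell, and 2 with COMBO, where 0.32% fell. The F test, which called 4.39% of all genes, called Emcn, Vwf, Pecam1 and Kdr of this list (adjusted p from 0.00587 to 0.0294). Emcn, endomucin, was 10.30 with vehicle, 8.91 with PLX4720, 9.24 with bevacizumab and 8.23 with COMBO (PLX4720 against vehicle -1.39, adjusted p = 0.00483, a call lost under median scaling at -0.35, adjusted p = 0.268). For COMBO against vehicle the adjusted p was 0.00708, and the call was lost without COMBO replicate 1 (adjusted p = 0.0755) or 2 (adjusted p = 0.0592) and without the 3 arrays highest in muscle genes (adjusted p = 0.104).

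**Figure D4:**
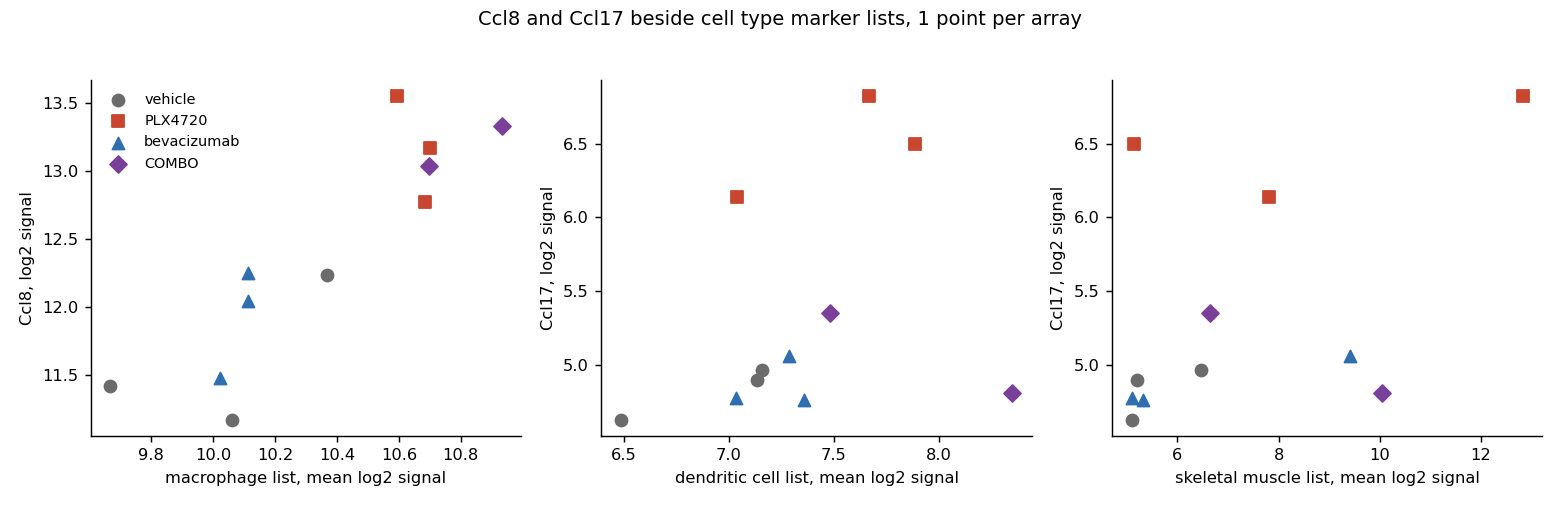
Signal of Ccl8 against the mean of the macrophage list, and of Ccl17 against the means of the dendritic cell and skeletal muscle lists, with 1 point per array (all axes in log2 signal). PLX4720 and COMBO arrays lie at the upper right for Ccl8, and for Ccl17 the PLX4720 arrays lie at 6.14 or more and the other 8 at 5.35 or less.

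The genes whose pattern over the 11 arrays was most like that of the leading member of each family were picked by Pearson r among all non-members. For Ccl8 they were C4a, a complement component (r = 0.95), Igf1, a growth factor made by macrophages and fibroblasts (r = 0.94), and Pepd, a dipeptidase (r = 0.94). For Ccl3 they were Atf3, a stress-induced transcription factor (r = 0.87), Vwf, the endothelial von Willebrand factor (r = 0.83), and Smg6, a nuclease of RNA decay (r = 0.83). For Ccl17 they were Nr1d2, a clock repressor (r = 0.95, rho = 0.79), Col8a2, a collagen chain (r = 0.95, rho = 0.75), and Nek9, a mitotic kinase (r = 0.94, rho = 0.73). Since Ccl17 was at background on 8 of the 11 arrays, its r mostly sets the PLX4720 arrays against the rest. For Ccl8 rho was 0.90 to 0.94 and for Ccl3 0.75 to 0.84.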

How the data were processed

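Total RNA of 11 tumors was hybridized to Illumina MouseWG-6 v2.0 bead arrays. The authors deposited probe intensity values with a detection p-value per probe, from GenomeStudio 2011.01, and a second table of intensity values normalized by cubic spline, which was used as an alternative. Arrays were grouped by treatment from the labels. Of 45281 probes, 34885 carry 1 gene symbol in the platform annotation, 18 several and 10378 none.

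Intensities were background-corrected from the detection p-values with an offset of 16, quantile normalized and taken to log2 (neqc, limma 3.58.1, R 4.3.3). Probes detected at p under 0.05 on at least 1 array were kept, and each gene was represented by its probe with the largest mean, as in the study's methods, which left 10933 genes. A model with 1 mean per group was fitted over all 11 arrays (7 residual and 5.01 prior degrees of freedom). Alternatives were other normalizations, filters, probe handling and variance moderation, the threshold of the methods, a replicate block, and leaving out each array or the 3 highest in muscle genes. The script was tested on simulated data. Array number limits the precision. The named context genes were at most 4 of each list, those with the smallest p among genes past the F test, plus the receptors, the defining markers and genes said to be named after their values were seen. The members, lists and tests were chosen with earlier results of these data known. No 2 arrays held identical values.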

Additional observations from a re-analysis of the deposited data

How the results depend on the processing

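Of the 10 chemokines, 2 were called with PLX4720 in the main analysis and with no background correction, cyclic loess, the authors' normalized values, either other detection filter, other handling of probes, only the groups compared, trended variance moderation, or the 3 arrays highest in muscle genes left out. Median scaling raised the count to 6 (Ccl2, Ccl7, Ccl9 and Ccl12 joined) and the median of all genes from 0.14 to 0.76. Relative to that median Ccl8 stood at 1.48 and Ccl17 at 1.50, and Ccl2, Ccl7, Ccl9 and Ccl12 at 0.50 to 0.86, while the share of higher genes among those called went from 42.3% to 95.8%. Leaving out 1 array at a time gave 1 to 3 with PLX4720 and 1 to 3 by the F test, with Ccl12 joining in both without PLX4720 replicate 2 and Ccl8 lost in both without vehicle replicate 2 or 3 and in the F test without either COMBO array.

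By the F test 4 were called under median scaling, 1 with no detection filter (Ccl17) and 0 without the 3 arrays highest in muscle genes (limma, 3 at an unadjusted p under 0.05). The cause was not tested. For COMBO against PLX4720, 1 (Ccl17) was called under median scaling, trended moderation and the threshold of the methods, which also called 1 for COMBO against vehicle, 1 for COMBO against bevacizumab (Ccl8 in both) and 1 for the departure from additivity (Ccl17). With bevacizumab against vehicle 0 were called by limma under every alternative run, with 0 to 1 at an unadjusted p under 0.05. Of 50 remaining differences with an unadjusted p of at least 0.05, 4 were called under some alternative and 34 changed sign under at least 1.

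Replicate numbers are shared between groups in the labels, but the deviations of same-numbered arrays had r from -0.247 to 0.269 (15 pairs, mean 0.017, against -0.009 for 30 pairs of different numbers), so the numbers were not taken as pairs, although 7 of 11 arrays were closest to their own number. With replicate number as a block, 2 were called with PLX4720 (Ccl8 adjusted p = 0.0239, Ccl17 adjusted p = 0.00452), 1 by the F test (Ccl17), and no other call changed.

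Ccl24 was not tested under the stricter filter or without PLX4720 replicate 2. Ccl17 was near background outside PLX4720 and Ccl24 on all arrays but PLX4720 replicate 2, which limits their differences.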
